A study of Mus musculus with 18 samples.

Results

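The SLC25 family of solute carriers was described in mouse brown adipocytes, as the 46 rows of the deposited count table whose gene symbol is Slc25a followed by a number, out of 17672 genes in all. The rule reads gene symbols and no measured value. Of the 46 members, 36 had enough counts to be tested, among 10178 tested genes.

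SLC25 proteins are the main transporters of the inner mitochondrial membrane, which is closed to most metabolites. They exchange nucleotides, phosphate, carboxylic acids, amino acids, acylcarnitines, cofactors and metals between cytosol and matrix. They are encoded in the nucleus, and most are imported without a cleaved presequence. Brown adipocytes burn fatty acids in mitochondria to make heat, and their best known carrier, the uncoupling protein UCP1, belongs to the same family by sequence, although its gene symbol places it outside the 46 rows.

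All 6 groups came from immortalised mouse brown preadipocytes, differentiated in culture. Every group, controls included, carried a stable lentiviral shRNA that knocks down Abhd5, whose product activates the lipase ATGL, and a pINDUCER20 construct for an shRNA-resistant ABHD5 tagged with mCherry. Cells kept without doxycycline (Dox) are the knockdown state, and cells given Dox at 1 µg/ml for 24 h (the labels give 24 to 48 h) are the rescued state. In each state, 3 libraries each were made after 3 h with DMSO (the vehicle), with the β-adrenergic agonist isoproterenol (ISO, 10 nM), which raises cAMP, or with the ABHD5 ligand SR-3420 (20 µM). The replicates are independent experiments by the study's methods, and the labels do not say whether the same number in different groups marks the same experiment.

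The 18 libraries held 689910 to 1956565 counts, and SLC25 members took 0.174% to 0.346% of them. SR-3420 with Dox replicate 1 stood apart, since its 10 highest genes took 35.6% of its counts (16.3% to 26.5% in the other libraries), and results that rest on it are also given without it. Abhd5, the targeted gene, lay between 47.2 and 55.8 CPM (normalised read counts on TMM-scaled library sizes) in DMSO without Dox and between 484 and 656 CPM with Dox, which is 3.46 higher on the log2 scale (SE 0.17, edgeR adjusted p 2.44e-14), where counts of the construct and of the endogenous gene cannot be told apart. Abhd5 was also higher with ISO than with DMSO, 2.84-fold (edgeR adjusted p 3.34e-07) without Dox, where its mean was 149 CPM against 52.6, and by 0.52 on the log2 scale (SE 0.14, edgeR adjusted p 0.00502) with Dox. In SR-3420 without Dox it lay between 70.9 and 78.5 CPM, above every DMSO library, and with Dox between 575 and 849 CPM, which overlapped DMSO. The level of Abhd5 in the state without Dox was thus not the same under each treatment. Of 12 brown adipocyte markers, 11 were in the table, with Dio2 at 0 in every library. Lpl, Plin1, Pparg and Adipoq had at least 805, 435, 223 and 222 counts. Ebf2, Ppargc1a, Prdm16, Fabp4 and Cidea had at least 26, 15, 13, 9 and 8, and Ucp1 had 0 to 347 with a median of 2. Of the preadipocyte and fibroblast markers, Col3a1, Col1a1, Pdgfrb, Pdgfra and Ly6a had at least 222, 180, 51, 17 and 2 counts. Dlk1, Cd34 and Thy1 had at most 12, 2 and 1 counts in a library. Of the macrophage and endothelial markers in the table, only Cd68 and Tek passed the filter on low counts, and Ptprc, Cdh5 and Kdr had at most 2, 1 and 1 counts in a library. The counted length lay within 10% of the annotated intron length for 27 of the 46 members, and how far the counts follow unspliced or spliced RNA was not tested. Fewer adipocytes cannot be told apart from less RNA per cell in such bulk samples.

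To compare members with each other, CPM were divided by the length in kb over which each gene was counted, for example 1331 bases in Slc25a1 and 164395 in Slc25a13, and the order of levels depends on these lengths. In DMSO without Dox the 36 tested members spanned from 76.8 ± 22.01 CPM per kb (SD, n = 3) for Slc25a1, the citrate carrier, to 0.248 ± 0.0335 for Slc25a25, a carrier that exchanges ATP-Mg for phosphate. Slc25a11, the oxoglutarate/malate carrier (64.1 ± 4.84 CPM per kb), followed Slc25a1 within its spread. Slc25a3, the phosphate carrier (41.4 ± 3.08), and Slc25a39, a glutathione carrier (38.3 ± 1.85), stood lower and did not differ from each other beyond their spread. The ADP/ATP carriers Slc25a4 and Slc25a5 stood at 29.4 ± 3.66 and 19.7 ± 9.12 CPM per kb. Slc25a51, the mitochondrial NAD carrier, was at rank 11 of 36 with 7.09 ± 1.82 CPM per kb, and at rank 5 in ISO with Dox with 59.8 ± 6.76.

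**Figure D1:**
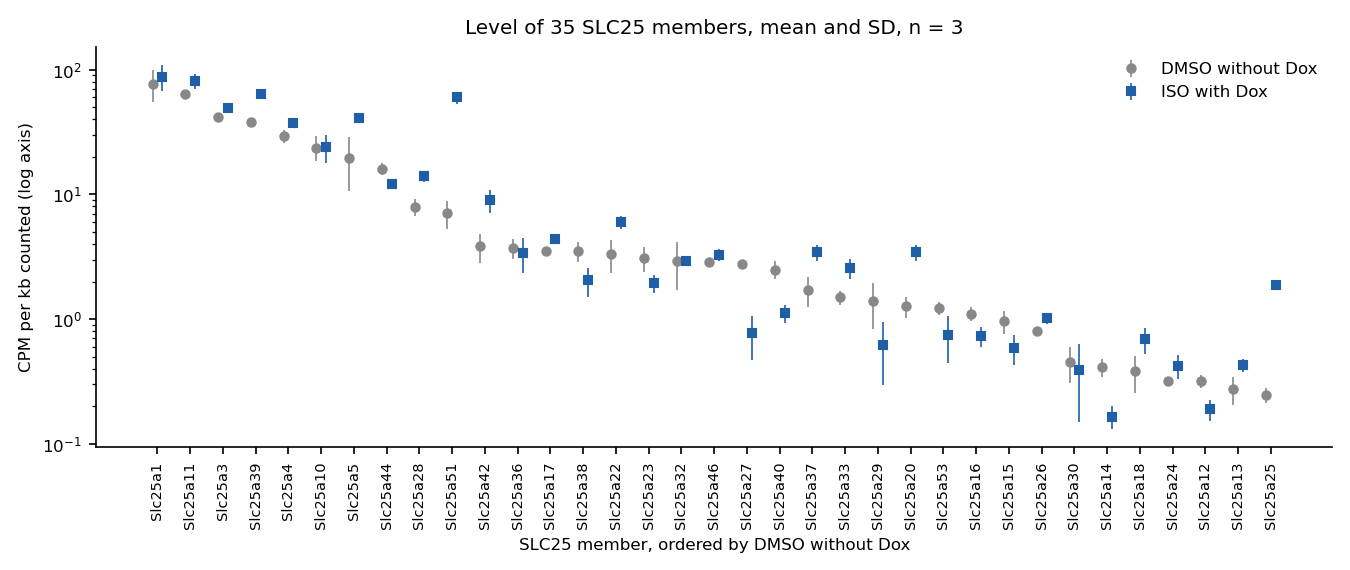
Level of 35 of the 36 tested SLC25 members as CPM per kb of counted length (log axis) in DMSO without Dox (grey circles) and ISO with Dox (blue squares), mean and SD of 3 libraries, ordered by the DMSO level. Slc25a51 moved from 7.09 to 59.8 and Slc25a25 from 0.248 to 1.89, while Slc25a27 is among the members with a lower blue than grey point.

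To ask which carriers responded to the agonist, ISO was compared with DMSO in each state. Of the 36 tested members, ISO raised 9 and lowered 4 in knockdown cells at an edgeR adjusted p of 0.05 or less, where 14.5% of all tested genes were called higher and 13.5% lower, and 28% in either direction, and 7 of the 13 changed at least 2-fold (10.9% of all genes). In rescued cells ISO raised 13 and lowered 4, beside 16.4% and 16.1% of all tested genes, 32.5% together, with 5 changed at least 2-fold (13.1%). The median log2 fold change of the members was 0.15 without and 0.27 with Dox, against -0.01 and -0.02 for all tested genes. Of the 9 and 13 members higher with ISO, 8 were shared (88.9% and 61.5% of each list). Of the 4 lower in each state 2 were shared, with none called in opposite directions. The overlap between the states was not counted for all tested genes, so these shares have no background. With the replicate number as a block, 20 passed with Dox, the added calls being Slc25a53 (-0.60), Slc25a40 (-0.57) and Slc25a11 (0.35). Markers of brown adipocytes moved with ISO as well, with 5 of 10 tested higher without Dox and 9 of 10 with Dox, none lower, and their summed level at 2140 to 2547 CPM in DMSO and 3315 to 3748 in ISO without Dox, and at 2548 to 2939 in DMSO and 4759 to 5665 in ISO with Dox. Of the other marker lists, Tek was the 1 tested endothelial gene and was higher with ISO in both states, with the list's summed level at 5.34 to 16.2 CPM in DMSO and 21.0 to 25.8 in ISO without Dox, and at 7.29 to 11.6 and 17.3 to 22.05 with Dox. Of 5 tested preadipocyte and fibroblast genes, 1 was higher and 1 lower with ISO without Dox and 2 were lower with Dox, with the list's summed level at 698.5 to 927 CPM in DMSO and 551 to 677 in ISO without Dox, which did not overlap, and at 774 to 1177 and 509 to 782 with Dox. Of 11 tested interferon-stimulated genes, 1 was higher with ISO in each state, with sums of 171.5 to 234 CPM in DMSO and 282 to 399.5 in ISO without Dox. The part of these markers in the carrier changes was not tested.

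**Figure D2:**
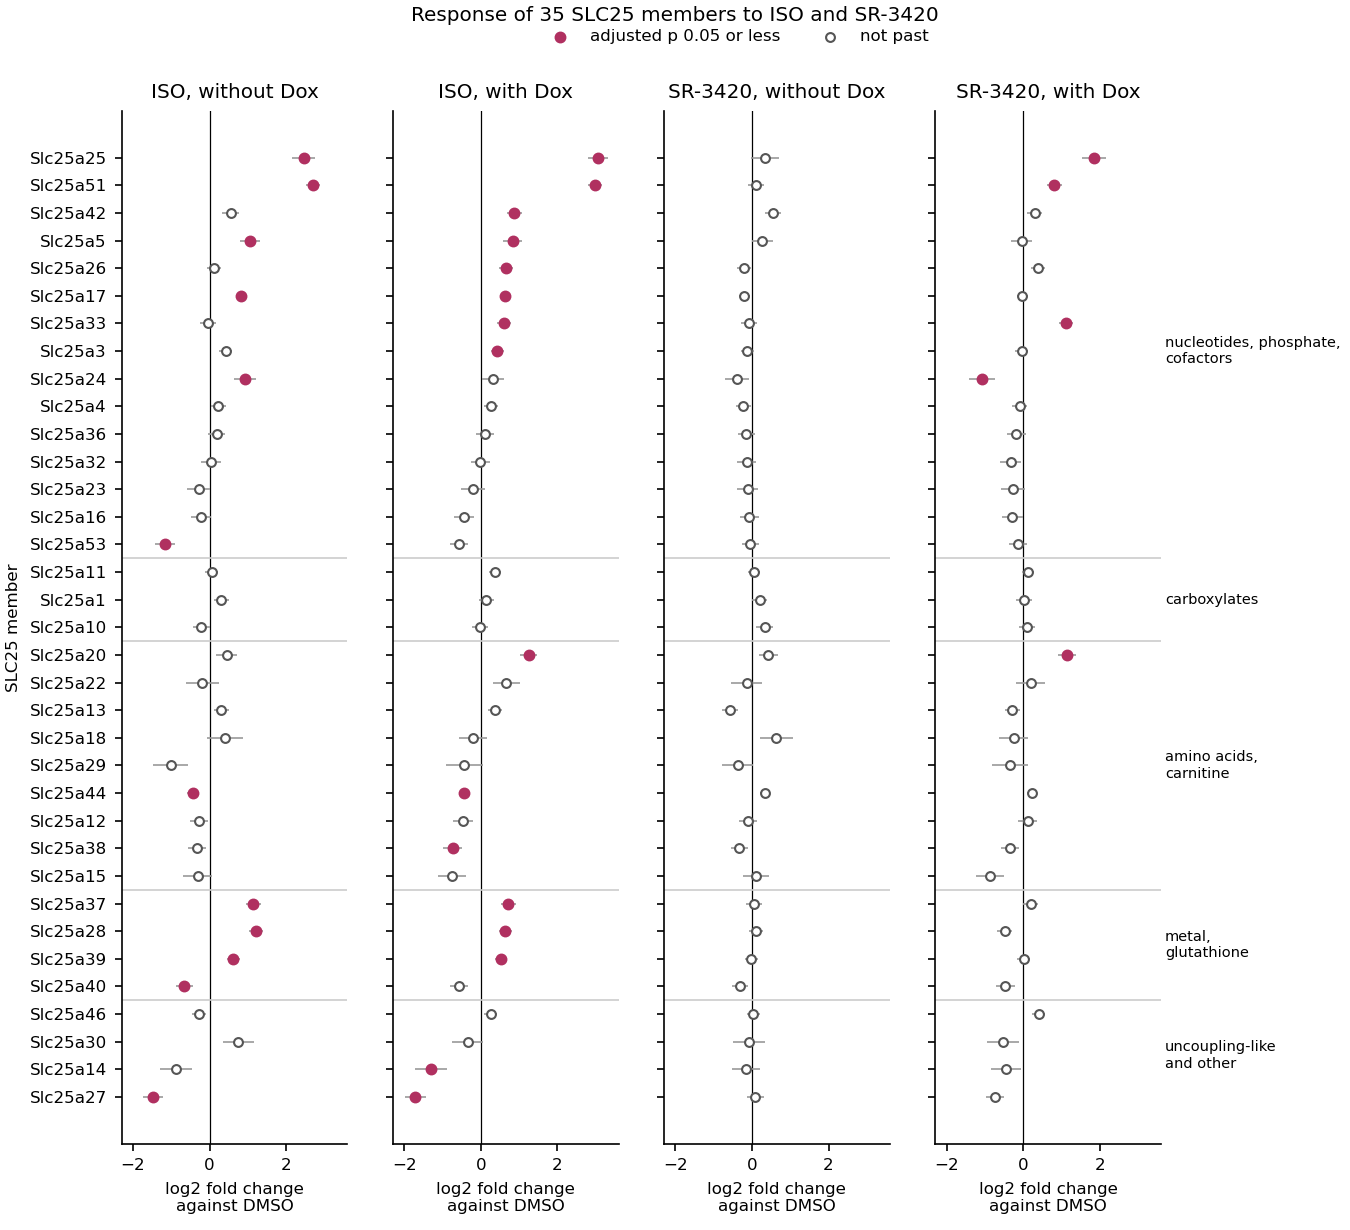
Log2 fold change against DMSO (points) with its SE (bars) for 35 of the 36 tested SLC25 members, grouped by substrate, for ISO and SR-3420 without and with Dox; filled points passed an edgeR adjusted p of 0.05. ISO has 12 and 16 filled points, SR-3420 none without Dox and 5 with Dox.

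Among carriers of nucleotides, phosphate and cofactors, ISO raised 6 and lowered 1 of 16 tested without Dox (14.5% and 13.5% of all tested genes), and raised 9 and lowered 0 with Dox (16.4% and 16.1%). Slc25a51, which brings NAD into the matrix, showed the strongest rise by p in both states. It stood at 45.4, 29.9 and 50.7 CPM in DMSO and at 310.2, 238 and 292 CPM in ISO without Dox. With Dox it stood at 53.9, 36.4 and 38.2 CPM in DMSO and 394, 314 and 355 CPM in ISO. Every ISO library was above every DMSO library, with log2 fold changes of 2.71 (SE 0.18, edgeR adjusted p 3.86e-12) and 2.99 (SE 0.18, edgeR adjusted p 1.81e-13). The difference between these responses, 0.28, had a 95% interval of -0.23 to 0.79. Slc25a51 lies at 45408796 to 45421638 of chromosome 4 on the minus strand of mm9, and an annotated miRNA of 125 bases overlaps it on its own strand. Its relative Slc25a53, once named with it as mitochondrial carrier triple repeat genes, moved the other way without Dox, from 48.9, 44.9 and 56.8 CPM in DMSO to 23.8, 28.8 and 16.5 CPM in ISO. On the log2 scale that was -1.16 (SE 0.26, edgeR adjusted p 0.0013), and with Dox it was -0.57 and did not pass. An annotated gene, Zcchc18, overlaps Slc25a53 by 5318 bases on the other strand, and no source states strand-aware counting, so this value is uncertain. The same holds for Slc25a26 and Slc25a33 below, which overlap Lrig1 (132 to 710 counts) by 124 bases and Gm13068 by 1090 bases on the other strand.

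Slc25a25, whose protein adjusts the matrix pool of adenine nucleotides and responds to calcium, had the lowest mean level per kb at rest of the 36 tested members, within the spread of Slc25a13 (0.275 ± 0.0717 CPM per kb), and a response to ISO with Dox close in size to that of Slc25a51. Its values in DMSO without Dox were 6.23, 8.16 and 7.10 CPM, and in ISO 38.9, 35.7 and 42.0 CPM. With Dox they were 4.81, 8.33 and 7.87 CPM in DMSO and 50.9, 59.9 and 52.9 CPM in ISO. The groups did not overlap, and the log2 fold changes were 2.45 (SE 0.30, edgeR adjusted p 3.7e-07) and 3.06 (SE 0.27, edgeR adjusted p 5.75e-10). The other tested carriers of ATP-Mg and phosphate did not follow together, as Slc25a24 rose by 0.93 (SE 0.29, edgeR adjusted p 0.0161) without Dox and not with Dox (0.32), and Slc25a23 was at -0.29 and -0.20, not past the test. The Slc25a24 rise was lost with DESeq2, with library totals only and without DMSO replicate 3 or ISO replicate 2. Naif1 overlaps Slc25a25 by 1014 bases on the other strand and had 0 to 3 counts.

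Because isoproterenol acts through cAMP, the promoters of the members were searched on both strands for the full cAMP response element TGACGTCA and the part TGACGT, which the full element contains in both directions, in 250 bases before to 50 bases after each start. RefSeq (GRCm38.p6, a later build than the mm9 of the counts) had 46 promoters for 36 of the members, Slc25a51 not among them. The full element was in 588 of 32851 promoters (1.79%) and among the members in 2, one of 3 promoters of Slc25a25 and the promoter of Slc25a36, a pyrimidine nucleotide carrier. The part was in 7.51% of all promoters and in 5 of these 46 promoters. The 250 bases before the start are shown for 4 members: Slc25a25 and Slc25a36, which hold the full element, Slc25a33, which holds the part in reverse, and Slc25a20, a called member with neither. Capitals mark the element or its part, 5′ to 3′ along the gene's strand. The Slc25a25 stretch is chr2:32424067-32424316 on the minus strand, Slc25a36 chr9:97111042-97111291 on the minus strand, Slc25a33 chr4:149774268-149774517 on the minus strand and Slc25a20 chr9:108661886-108662135 on the plus strand.
Slc25a25: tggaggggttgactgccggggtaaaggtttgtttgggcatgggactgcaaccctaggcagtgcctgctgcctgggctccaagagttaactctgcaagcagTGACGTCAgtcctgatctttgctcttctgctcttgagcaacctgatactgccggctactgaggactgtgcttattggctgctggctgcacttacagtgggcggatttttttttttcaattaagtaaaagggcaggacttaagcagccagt
Slc25a36: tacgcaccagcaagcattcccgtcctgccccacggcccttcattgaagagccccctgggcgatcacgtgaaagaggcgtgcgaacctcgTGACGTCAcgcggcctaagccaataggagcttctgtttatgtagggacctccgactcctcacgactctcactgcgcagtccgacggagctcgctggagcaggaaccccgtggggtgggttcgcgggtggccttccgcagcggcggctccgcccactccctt
Slc25a33: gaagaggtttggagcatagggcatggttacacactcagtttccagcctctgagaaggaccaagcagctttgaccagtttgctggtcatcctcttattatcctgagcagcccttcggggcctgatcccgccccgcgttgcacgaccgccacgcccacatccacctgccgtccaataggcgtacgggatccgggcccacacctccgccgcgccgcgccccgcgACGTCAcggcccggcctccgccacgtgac
Slc25a20: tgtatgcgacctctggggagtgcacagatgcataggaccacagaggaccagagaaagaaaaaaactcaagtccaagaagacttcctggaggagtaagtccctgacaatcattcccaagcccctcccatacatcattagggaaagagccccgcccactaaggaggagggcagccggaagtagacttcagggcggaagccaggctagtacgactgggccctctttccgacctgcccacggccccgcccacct

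The full element began 150 bases before the start in Slc25a25 and 161 bases before it in Slc25a36. Slc25a25 passed the test with ISO in both states, whereas Slc25a36 had log2 fold changes of 0.18 (SE 0.23) and 0.12 (SE 0.23) and passed in none of the 10 comparisons. In Slc25a33 the part began 29 bases before the start. The direct repeat that PPAR proteins bind with RXR, searched as AGGNCA, any 1 base and AGGNCA again, was in 0.381% of all promoters and in 0 of these 46 promoters. An amino acid response element as TTGCATCA was in 0.895% of all promoters and in 0 of these 46 promoters, and the extended E-box CACGTGAC in 2.25% of all promoters and in promoters of 3 members, Slc25a13, Slc25a14 and Slc25a33. These matches describe letters in short windows and not binding.

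Among the remaining nucleotide and cofactor carriers, Slc25a5 and Slc25a17 passed with ISO in both states, and Slc25a42 and Slc25a26 with Dox, whereas Slc25a16 and Slc25a32 passed in neither state. Slc25a5, the ADP/ATP carrier ANT2, rose by 1.06 (SE 0.26, edgeR adjusted p 0.00325) without and 0.84 (SE 0.25, edgeR adjusted p 0.0102) with Dox, the latter lost without DMSO replicate 2. Its sister Slc25a4 was at 0.22 (SE 0.20) and 0.27 (SE 0.19) and did not pass. Slc25a17, which carries CoA, FAD and NAD across the peroxisomal and not the mitochondrial membrane, went from 135, 147 and 142 to 318, 218 and 220.0 CPM without Dox, and from 125, 116 and 96.6 to 169, 184 and 176 CPM with Dox. All ISO libraries were above all DMSO libraries, with log2 fold changes of 0.83 (SE 0.14, edgeR adjusted p 7.81e-05) and 0.64 (SE 0.15, edgeR adjusted p 0.0012).

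Slc25a42, the CoA carrier, was at 102, 57.2 and 93.2 CPM in DMSO with Dox and at 163, 123 and 190.0 CPM in ISO with Dox. That rise of 0.88 (SE 0.19, edgeR adjusted p 0.000827) did not overlap between groups, and without Dox the value was 0.55 (SE 0.21, edgeR adjusted p 0.0543), which passed with no filter on low counts (0.0113), with the replicate number as a block (0.00255) and in 2 of 6 fits without 1 library. Slc25a26, which imports S-adenosylmethionine, rose by 0.66 (SE 0.18, edgeR adjusted p 0.00491) with Dox and was at 0.12 without. Slc25a3, the phosphate carrier, was at 0.42 without Dox (SE 0.16, edgeR adjusted p 0.0546) and at 0.43 with Dox (SE 0.16, edgeR adjusted p 0.0369), a call lost in 5 of 6 fits without 1 library, with library totals only, with no filter on low counts and with DESeq2.

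Of the 4 carriers of metal and glutathione, ISO raised 3 and lowered 1 without Dox, and raised 3 with Dox, where 28% and 32.5% of all tested genes were called in either direction. Slc25a28 and Slc25a37 encode the mitoferrins, which bring iron to the matrix for haem and iron-sulphur clusters. Slc25a28 was at 66.7, 49.0 and 58.8 CPM in DMSO and 169, 111 and 131 CPM in ISO without Dox, and at 83.3, 46.8 and 57.3 CPM in DMSO and 109, 89.8 and 107 CPM in ISO with Dox. No library of DMSO reached one of ISO in either state. Its log2 fold changes were 1.21 (SE 0.19, edgeR adjusted p 1.48e-05) and 0.64 (SE 0.18, edgeR adjusted p 0.00684, lost with library totals only at 0.0507), and those of Slc25a37 1.14 (SE 0.20, edgeR adjusted p 8.75e-05) and 0.72 (SE 0.19, edgeR adjusted p 0.0043). Slc25a39, which imports glutathione, rose by 0.62 (SE 0.16) and 0.52 (SE 0.16), and both of its calls were lost with library totals only. The call of Slc25a39 with Dox was also lost without DMSO replicate 1. Its relative Slc25a40 went from 51.6, 42.2 and 58.8 CPM to 28.1, 24.8 and 42.0 CPM without Dox, or -0.67 on the log2 scale (SE 0.22, edgeR adjusted p 0.0256). That call was lost in 4 of 6 fits without 1 library and with DESeq2. With Dox Slc25a40 was at -0.57 (SE 0.24, edgeR adjusted p 0.0647).

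**Figure D3:**
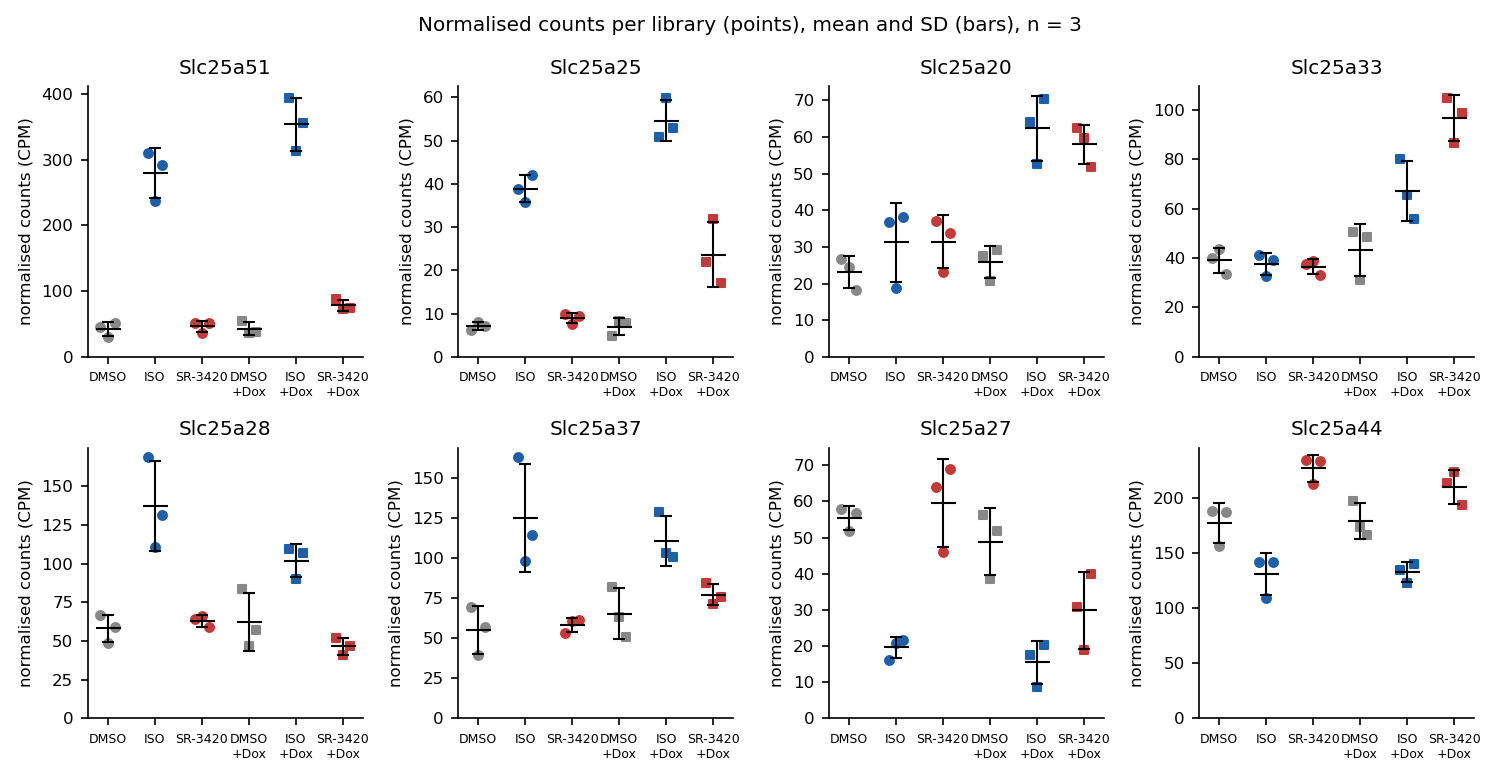
Normalised counts (CPM) in each of the 18 libraries (points; circles without Dox, squares with Dox) with the mean and SD of 3 libraries (black bars) for 8 SLC25 members. Slc25a51, Slc25a25, Slc25a28 and Slc25a37 are highest in ISO, Slc25a33 is highest in SR-3420 with Dox, and Slc25a27 is lowest in ISO.

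Of 9 tested carriers of amino acids and carnitine, ISO lowered 1 without Dox, and raised 1 and lowered 2 with Dox. These shares, 11.1% and 33.3%, compare with 28% and 32.5% of all tested genes. Slc25a20, the carnitine/acylcarnitine carrier that passes fatty acids to β-oxidation, was at 27.4, 20.8 and 29.2 CPM in DMSO with Dox and at 64.2, 52.8 and 70.3 CPM in ISO with Dox. The groups did not overlap, and the log2 fold change was 1.25 (SE 0.23, edgeR adjusted p 8.67e-05). Without Dox it was at 26.7, 24.5 and 18.3 CPM in DMSO and 36.7, 18.8 and 38.3 CPM in ISO, which overlapped, at 0.45 (SE 0.27, edgeR adjusted p 0.225). When ISO replicate 2, at 18.8 CPM, was left out, the value without Dox was 0.70 and passed (edgeR adjusted p 0.0470). Slc25a44, the carrier of branched-chain amino acids, which brown fat uses as fuel, fell by 0.44 on the log2 scale without (SE 0.14) and with Dox (SE 0.13). Its libraries stood at 189, 156 and 188 CPM in DMSO and 142, 109 and 142 CPM in ISO without Dox, and at 197, 174 and 166 CPM in DMSO and 135, 123 and 140.5 CPM in ISO with Dox, with no overlap in either state. These calls were lost in 3 of 6 fits without 1 library for the cells without Dox and in 2 of 6 for those with Dox. Slc25a38, which imports glycine for haem synthesis, fell with Dox, from 39.96, 35.4 and 49.4 to 18.3, 31.5 and 24.1 CPM (-0.74, SE 0.24, edgeR adjusted p 0.0189), and this call was lost in 3 of 6 fits without 1 library. The aspartate/glutamate carriers Slc25a12 and Slc25a13 were at -0.28 and 0.30 without and -0.47 and 0.38 with Dox, and neither passed.

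The 3 tested carboxylate carriers did not pass in any comparison when every library was used and no block was fitted. Slc25a1, which exports citrate for fatty acid synthesis, was at 0.31 (SE 0.21) and 0.15 (SE 0.20) with ISO, and the dicarboxylate carrier Slc25a10 at -0.22 (SE 0.22) and -0.03 (SE 0.21). Slc25a11 was at 0.05 (SE 0.16) and 0.38 (SE 0.15, edgeR adjusted p 0.0602), and with Dox it passed with the replicate number as a block (0.35, edgeR adjusted p 0.0341) and without ISO replicate 1 (0.49, edgeR adjusted p 0.0302).

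Of the 4 tested relatives of the uncoupling proteins and other members, ISO lowered 1 without and 2 with Dox and raised none, beside 13.5% and 16.1% of all tested genes called lower. Slc25a27, also named UCP4 and best known from brain, was at 57.8, 51.7 and 56.8 CPM in DMSO and 16.2, 20.8 and 21.8 CPM in ISO without Dox. With Dox it was at 56.3, 38.5 and 51.7 CPM in DMSO and 17.5, 8.66 and 20.2 CPM in ISO. Every ISO library was below every DMSO library, and the log2 fold changes of -1.49 (SE 0.27, edgeR adjusted p 0.000104) and -1.70 (SE 0.27, edgeR adjusted p 1.45e-05) were the lowest of the tested members in both states. Slc25a14, also named UCP5, went from 12.04, 15.6 and 13.5 to 4.17, 6.30 and 5.78 CPM with Dox (-1.29, SE 0.42, edgeR adjusted p 0.0193), and was at -0.87 (SE 0.42) without. The Slc25a14 call was lost without DMSO replicate 2 or ISO replicate 1. Slc25a30 was at 0.75 (SE 0.40) and -0.34 (SE 0.41), and Slc25a46, an outer membrane protein of mitochondrial dynamics, at -0.29 (SE 0.18) and 0.26 (SE 0.17), none past the test.

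SR-3420 was then compared with DMSO, to ask which carriers responded to the ABHD5 ligand. Without Dox, no member passed with edgeR or DESeq2, where 0.766% of all tested genes were called. At an unadjusted p under 0.05 there were 3 of 36 members, beside 893 of the 10178 tested genes. The 3 were Slc25a13, Slc25a42 and Slc25a44, named after their values were seen. A block on replicate number let Slc25a42 pass (0.58, edgeR adjusted p 0.0148). With Dox, 4 members were higher and 1 lower, beside 6.53% and 3.37% of all tested genes, 9.9% together, and 4 of the 5 changed at least 2-fold (3.1%). All 5 also passed without SR-3420 with Dox replicate 1, when the count was again 5. With the replicate number as a block 7 passed, Slc25a27 among them (-0.74, edgeR adjusted p 0.00788), which was at 0.0536 without the block. The members' median was -0.06, against -0.02 for all tested genes. Of the 10 tested brown adipocyte markers, 6 were higher with SR-3420 with Dox, with summed levels of 3403 to 4275 CPM against 2548 to 2939 in DMSO, and their part in these changes was not tested. Without Dox 2 of the 10 were higher, with sums of 3006 to 3223 CPM against 2140 to 2547 in DMSO, which did not overlap.

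The responses to SR-3420 and ISO with Dox were measured against the same DMSO libraries, and their values are set side by side here. Slc25a33, which carries pyrimidine nucleotides for mitochondrial DNA and RNA synthesis, was at 50.6, 31.2 and 48.3 CPM in DMSO, 105, 86.5 and 98.9 CPM in SR-3420 and 80.0, 65.4 and 55.8 CPM in ISO with Dox. All SR-3420 libraries were above all ISO libraries, and these above all DMSO libraries, at 1.12 for SR-3420 (SE 0.18, edgeR adjusted p 6.2e-05) and 0.60 for ISO (SE 0.18, edgeR adjusted p 0.0116) against DMSO, the latter lost with library totals only and without DMSO replicate 2 or ISO replicate 1. Slc25a25 was at 21.97, 31.8 and 17.0 CPM in SR-3420, a rise of 1.85 (SE 0.31, edgeR adjusted p 0.000126), and Slc25a20 at 62.4, 59.6 and 51.9 CPM, a rise of 1.15 (SE 0.23, edgeR adjusted p 0.00102). Slc25a51 was at 87.9, 72.6 and 74.9 CPM, a rise of 0.82 (SE 0.19, edgeR adjusted p 0.0052) that was lost with library totals only. None of these 4, named because they passed, overlapped DMSO, and the share without overlap among all tested genes was not counted. Slc25a24 was lower, with 9.67, 4.97 and 4.99 CPM against 13.0, 16.7 and 13.5 CPM (-1.08, SE 0.35, edgeR adjusted p 0.0449). This call was lost in 5 of 6 fits without 1 library, with no filter on low counts and with DESeq2.

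Set directly against each other in rescued cells, ISO was above SR-3420 in 11 members and below it in 3, where 10.4% and 9.43% of all tested genes were called, 19.8% together, with 5 past 2-fold (6.85%). Slc25a51 differed most by p, at 2.17 (SE 0.17, edgeR adjusted p 7.66e-11), a 4.50-fold higher level with ISO. Slc25a25 (1.21, SE 0.22) and Slc25a28 (1.12, SE 0.19) also stood higher with ISO, Slc25a28 against 51.9, 40.8 and 46.9 CPM in SR-3420. Slc25a24, Slc25a5, Slc25a17, Slc25a13, Slc25a42, Slc25a39 and Slc25a3 also passed, at 1.40 to 0.47. Of these calls, that of Slc25a3 was lost in 5 of 6 fits without 1 library, with DESeq2 and with no filter on low counts, that of Slc25a42 in 4 of 6, that of Slc25a39 in 3 of 6, that of Slc25a5 in 2 of 6 and that of Slc25a13 in 1 of 6, while those of Slc25a24 and Slc25a17 were kept in all 6. The 3 lower members were Slc25a44 (-0.66, SE 0.13, edgeR adjusted p 0.000607), which was at 214, 224 and 194 CPM in SR-3420, Slc25a27 (-0.97, SE 0.30), whose groups overlapped, and Slc25a33 (-0.52, SE 0.17, edgeR adjusted p 0.0274). The Slc25a33 call was lost in 4 of 6 fits without 1 library, with DESeq2 and with library totals only, and that of Slc25a27 in 3 of 6. Without SR-3420 with Dox replicate 1, 11 members passed, and without replicate 3 of that group 9 passed. Slc25a20 was not among the called members. Of 10 tested brown adipocyte markers 5 were higher with ISO than with SR-3420. Tek, the 1 tested endothelial gene, was higher by 1.22, and of 5 preadipocyte and fibroblast genes 1 was higher and 1 lower. The part of these markers in the differences was not tested.

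ABHD5 rescue itself was assessed by comparing cells with and without Dox under each treatment. In DMSO no member passed with edgeR or DESeq2, where 1.18% of all tested genes were called. At an unadjusted p under 0.05 there were 3 of 36 members, beside 1000 of the 10178 tested genes. The 3 were Slc25a17, Slc25a18 and Slc25a40, named after their values were seen. Under ISO, 3 members were higher and 1 lower with Dox, beside 7.92% and 4.82% of all tested genes, 12.7% together, none by 2-fold (4.69%), while a block on replicate number gave 7, the added calls being Slc25a51 (0.34), Slc25a46 (0.46) and Slc25a28 (-0.42). Under SR-3420, 4 were higher and 3 lower, beside 7.26% and 4.28%, 11.5% together, with 2 past 2-fold (3.4%), and without SR-3420 with Dox replicate 1 these were 4 and 4. All 11 tested genes of an interferon-stimulated list were higher with Dox in each treatment, with a summed level of 169.5 to 399.5 CPM without and 835 to 1952 CPM with Dox, and brown adipocyte markers were higher with Dox in 6 of 10 under ISO, 4 of 10 under SR-3420 and 1 of 10 in DMSO. The brown adipocyte sums were 3315 to 3748 CPM without and 4759 to 5665 with Dox under ISO, and 3006 to 3223 and 3403 to 4275 under SR-3420. The part of both lists in the Dox comparisons was not tested.

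Slc25a20 and Slc25a33 were higher with Dox under both stimuli. For Slc25a20 the log2 fold change was 0.97 (SE 0.22, edgeR adjusted p 0.00312) under ISO and 0.89 (SE 0.22, edgeR adjusted p 0.0063) under SR-3420, where the libraries without Dox stood at 37.2, 23.2 and 33.7 CPM. In DMSO its value was 0.17 (95% interval -0.36 to 0.70). For Slc25a33 it was 0.84 (SE 0.19, edgeR adjusted p 0.00264) under ISO, from 41.1, 32.7 and 39.0 CPM without Dox, and 1.40 (SE 0.18, edgeR adjusted p 2.08e-06) under SR-3420, from 37.7, 38.9 and 33.0 CPM. Its value in DMSO was 0.19 (95% interval -0.20 to 0.59). Neither gene's libraries overlapped between the states under either stimulus.

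Other members passed under 1 stimulus. Under ISO, Slc25a42 was higher with Dox by 0.65 (SE 0.19, edgeR adjusted p 0.0235), from 96.2, 83.3 and 120.1 CPM without Dox. That call was lost in 4 of 6 fits without 1 library and with library totals only. Slc25a17 was lower with Dox under ISO (-0.51, SE 0.14, edgeR adjusted p 0.0139), a call lost in 3 of 6 fits without 1 library. Under SR-3420, Slc25a25 rose from 9.87, 7.55 and 9.42 CPM by 1.39 (SE 0.28, edgeR adjusted p 0.000942) and Slc25a51 from 51.1, 36.6 and 51.8 CPM by 0.77 (SE 0.19, edgeR adjusted p 0.0066). In DMSO they were at -0.12 (95% interval -0.91 to 0.66) and 0.06 (95% interval -0.36 to 0.47). Lower with Dox under SR-3420 were Slc25a27 (-0.98, SE 0.24, edgeR adjusted p 0.00547), from 63.9, 45.9 and 69.0 to 30.8, 18.9 and 39.95 CPM, and Slc25a40 (-0.75, SE 0.23, edgeR adjusted p 0.0301), from 44.7, 42.4 and 35.3 to 29.0, 18.9 and 24.97 CPM. The Slc25a40 call was lost with DESeq2 and in 4 of 6 fits without 1 library, those of Slc25a20 and Slc25a51 without SR-3420 without Dox replicate 2 (that of Slc25a51 also with library totals only) and that of Slc25a27 without SR-3420 with Dox replicate 2.

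Whether a response depended on rescue was tested by setting the response in rescued cells against that in knockdown cells. For ISO, 0 of 36 members passed with edgeR or DESeq2, where 2.18% of all tested genes were called. At an unadjusted p under 0.05 there were 5 members, beside 1436 of the 10178 tested genes. These 5 were Slc25a20 (0.81, SE 0.35), Slc25a33 (0.64), Slc25a26 (0.54) and Slc25a46 (0.54) on the higher side and Slc25a28 (-0.57) on the lower. For SR-3420, 1 member passed, Slc25a33, with a difference of 1.20 (SE 0.27, edgeR adjusted p 0.0259). Of all tested genes 0.757% were called, 0.54% in the higher direction. At an unadjusted p under 0.05 there were 8 of 36 members, beside 1227 of the 10178 tested genes. Without Dox the SR-3420 response of Slc25a33 was -0.08 (SE 0.20) and with Dox 1.12. The call was lost without SR-3420 with Dox replicate 1 (1.14, edgeR adjusted p 0.0734), in 6 more of the 12 fits without 1 library and with library totals only. For Slc25a25 the difference was 1.51 (SE 0.50, 95% interval 0.54 to 2.49, edgeR adjusted p 0.162), for Slc25a20 0.72 (SE 0.35, edgeR adjusted p 0.406) and for Slc25a51 0.71 (SE 0.28, edgeR adjusted p 0.287), so that these 3 passed with Dox and not without it, but the difference did not pass.

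**Figure D4:**
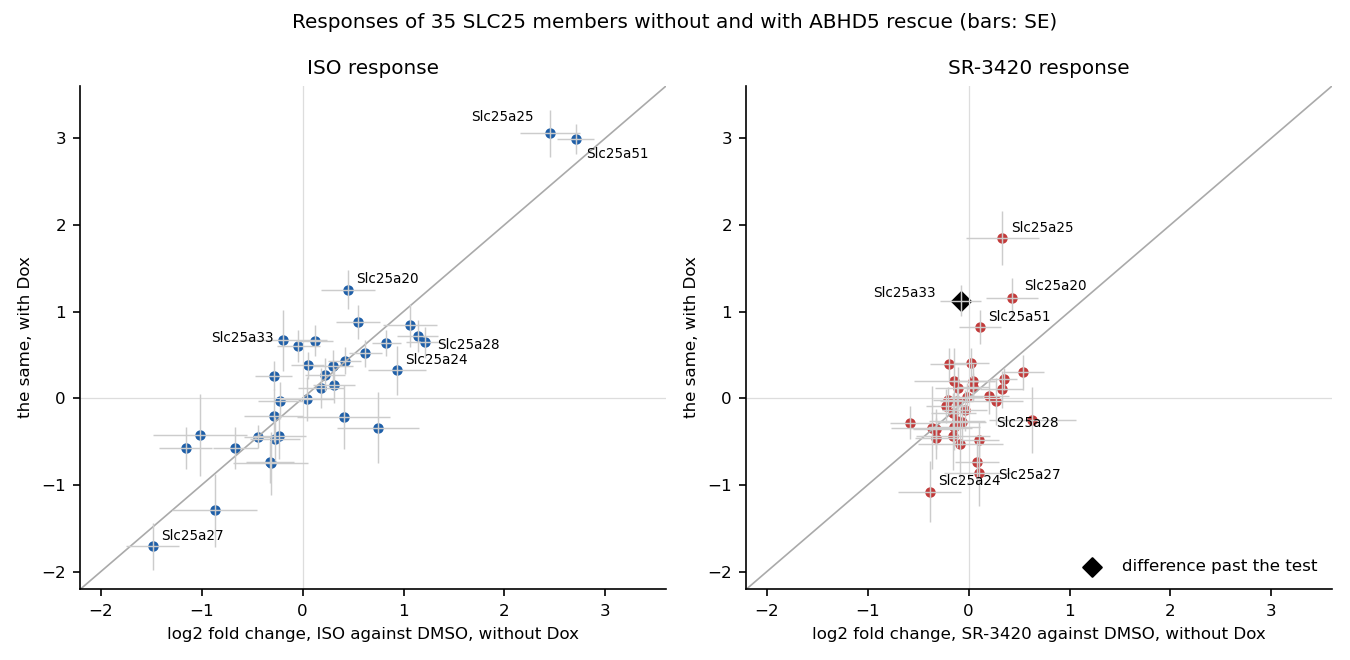
Log2 fold change against DMSO without Dox (horizontal axis) and with Dox (vertical axis) for ISO (left) and SR-3420 (right), 35 of the 36 tested SLC25 members with SE bars, and the line of equal response. Slc25a33, the black diamond at -0.08 and 1.12 for SR-3420, is the member whose difference passed the test.

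In 15 of the 36 tested members no comparison of the 10 passed in the fit with TMM, the filter, all 18 libraries and no block. These were Slc25a1, Slc25a4, Slc25a10, Slc25a11, Slc25a12, Slc25a15, Slc25a16, Slc25a18, Slc25a22, Slc25a23, Slc25a29, Slc25a30, Slc25a32, Slc25a36 and Slc25a46. Under an alternative, Slc25a11, Slc25a15, Slc25a23, Slc25a30 and Slc25a46 each passed in at least 1 comparison. The share of all tested genes without a call in any comparison was not counted. Among the 15 members, Slc25a29, Slc25a18, Slc25a22 and Slc25a30 had 148 to 249 counts over all 18 libraries, and their log2 fold changes had SEs of 0.35 to 0.47 with ISO, while Slc25a14, with 223 counts, had a call. The 10 untested members were Slc25a21, Slc25a31, Slc25a34, Slc25a35, Slc25a41, Slc25a43, Slc25a45, Slc25a47, Slc25a48 and Slc25a54, with 12 to 123 counts in all. Slc25a47, a carrier best known from liver, had at most 6 counts in a library. Slc25a34 had 0, 1 and 1 counts in DMSO, 4, 3 and 0 in ISO and 4, 1 and 5 in SR-3420 with Dox, and at most 2 in any library without Dox, too few for a test.

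Mitochondrial import proteins were counted beside the family, namely the TOM complex of the outer membrane, the small TIM chaperones and TIM22 on the way of carriers to the inner membrane, and Timm23 and Timm44 of the pathway for proteins with a presequence, which were both higher with ISO in each state. Of 15 tested genes of that list, 9 were higher and none lower with ISO in each state, beside 14.5% and 16.4% of all tested genes called higher without and with Dox. With SR-3420 with Dox 2 of the 15 were higher (Timm44, 0.50, and Timm9, 0.67), beside 6.53% of all tested genes. With ISO the examples were Timm9, at 0.88 (SE 0.19, edgeR adjusted p 0.000894) without and 1.54 (SE 0.18, edgeR adjusted p 7.7e-08) with Dox, Tomm40, the channel of the outer membrane, at 1.06 (SE 0.18) and 1.31 (SE 0.17), and Tomm70a, the receptor for carrier precursors, at 0.92 (SE 0.16) and 0.71 (SE 0.16). Timm22, the channel that inserts carriers, rose with Dox by 1.31 (SE 0.37, edgeR adjusted p 0.00723).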

How the data were processed

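RNA-seq counts of 18 libraries were analysed. The authors mapped reads to mm9 (STAR 2.4.2a), used HOMER to keep 1 read per position and length, and quantified genes by iRNA-seq. The deposited counts were whole numbers, not normalised or pooled. The counted length lay within 10% of the annotated intron length for 27 of 46 members, while the methods name counting over genes. Overlap with another annotated gene was found for 16 members, and strand use was not stated. Groups followed the sample titles. Counts passing filterByExpr (10178 of 17672 genes) were scaled by TMM and fitted with edgeR 4.0.16 quasi-likelihood in R 4.3.3 over all 18 libraries with 1 mean per group. Tests were two-sided with Benjamini-Hochberg adjustment over all genes tested. Of 10 contrasts, 7 compare a treatment or Dox with its control, 2 are interactions and 1 sets ISO against SR-3420. Alternatives were RLE factors, library totals only, no filter, DESeq2 1.42.0, the replicate number as a block and fits without 1 library. Every same-number pair of libraries correlated over 0.1 (lowest 0.12) in 4 comparisons (ISO and SR-3420 against DMSO with Dox, SR-3420 against DMSO without Dox, Dox under ISO), where calls that the block changed are given. The procedure was tested on simulated data. Members and gene lists were chosen with earlier results of these data known. Per library values are given for up to 4 members per direction and contrast with the smallest p, and 17 members and Abhd5 were to be named whatever their values; 1 member is not reported or plotted here, though counts of members include it. Library totals had a median of 1145729.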

Additional observations from a re-analysis of the deposited data

Results flagged for a closer look

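The response of Slc25a33 to SR-3420 differed between rescued and knockdown cells by an interaction test. The difference was 1.20 on the log2 scale (SE 0.27, edgeR adjusted p 0.0259), with SR-3420 with Dox above DMSO with Dox in 3 of 3 libraries, and a range of 1.04 to 1.36 and edgeR adjusted p of 0.00312 to 0.112 over the alternatives. Gm13068 overlaps Slc25a33 by 1090 bases on the other strand, and strand use in the counting was not stated.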

How the results depend on the processing

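Of the 61 calls of members over the 10 comparisons, 31 were kept in all alternatives run, 30 were lost in at least 1 and 0 changed direction, and 45 were kept in all 5 alternatives that used every library. Slc25a29, with 148 counts in all, had SEs of 0.47 with ISO, and whether depth accounts for members without a call was not tested. Library totals only put the median log2 fold change of all genes at -0.19 (ISO without Dox), -0.16 (ISO with Dox), -0.21 (SR-3420 with Dox), -0.22 (Dox under SR-3420) and -0.14 (interaction with SR-3420), and gave 0 members for that interaction, while no filter on low counts gave 2. When 1 library was left out, the number of members past the test ran from 10 to 12 for ISO without Dox, 13 to 17 for ISO with Dox, 4 to 6 for SR-3420 with Dox, 5 to 8 for Dox under SR-3420, 9 to 12 for ISO against SR-3420 (9 without SR-3420 with Dox replicate 3), 2 to 6 for Dox under ISO (2 without ISO without Dox replicate 1, ISO with Dox replicate 1 or ISO with Dox replicate 3) and 0 to 1 for the interaction with SR-3420. It stayed at 0 to 0 for SR-3420 without Dox, Dox in DMSO and the interaction with ISO.

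With the replicate number as a block, SR-3420 without Dox had 1 member, Dox under ISO 7 and the interaction with SR-3420 2, and it added Slc25a42 and Slc25a3 for ISO without Dox, Slc25a13 and Slc25a28 for Dox under SR-3420 and Slc25a37 for ISO against SR-3420, and no call was lost in any comparison. Deviations of libraries with the same number correlated at 0.0352 to 0.267 (median 0.143), over 0.1 in 34 of 45 pairs over all groups, and 18 of 18 libraries correlated best with their own number, which is a hint from the data, as the labels do not say what the number stands for.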

Other observations

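A list of other mitochondrial carriers, channels and enzymes of carnitine transfer, outside the 46 rows, had 28 tested genes. Of these, 7 were higher and 4 lower with ISO without Dox, where 14.5% and 13.5% of all tested genes were called higher and lower, and 9 were higher and 5 lower with Dox, beside 16.4% and 16.1%. Crat, carnitine acetyltransferase, rose with ISO by 1.103 (SE 0.14) without and 1.84 (SE 0.14, edgeR adjusted p 1.65e-11) with Dox, and Mpc1, a subunit of the mitochondrial pyruvate carrier, by 1.25 (SE 0.16, edgeR adjusted p 3.4e-07) with Dox. For these 2 genes the ISO response also differed between the states, by 0.74 (SE 0.20, edgeR adjusted p 0.0404) for Crat and 0.83 (SE 0.23, edgeR adjusted p 0.0493) for Mpc1. With SR-3420 Crat rose by 0.78 (SE 0.14) without and 0.85 (SE 0.14) with Dox, and Sfxn1, a serine transporter, by 0.59 (SE 0.13) and 0.67 (SE 0.13). Sfxn1 was lower with ISO without Dox (-0.42, SE 0.14, edgeR adjusted p 0.0231). Ucp1 passed with ISO in both states (0 to 347 counts over the libraries), and Ucp2 rose by 0.90 (SE 0.28) and 0.97 (SE 0.24). Ucp3 had 2 to 16 counts and rose by 1.31 (SE 0.43, edgeR adjusted p 0.0492) with SR-3420 with Dox.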
